A study of Homo sapiens with 60 samples.

Results

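The 45 genes described here encode proteins that take a cell from G2 through mitosis, and their RNA was followed in HepG2 cells, a human hepatocellular carcinoma line, over 20 treatment groups. They were chosen by name, as genes of entry into mitosis, the spindle, the kinetochore, the spindle checkpoint and cell division. Earlier results of these data were known when they and the gene lists used below were chosen. A count of members beside the share of all genes is therefore a description of these data. The members were matched by Ensembl identifier to the count table, which lists 60675 genes. All 45 were found, all 45 reached a count of at least 10 in at least 3 libraries, and all 45 were among the 16093 genes that passed the filter on low counts.

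HepG2 cells were treated for 24 h in every group, with 3 libraries each. The tested groups were wortmannin at 10 µM, an inhibitor of phosphoinositide 3-kinases, and water extracts of Poria Cocos (Poria below), Atractylodis Rhizoma (Atractylodes), Glycyrrhizae Radix (licorice), Panax Ginseng (ginseng), Angelicae Gigantis Radix (angelica) and Paeoniae Radix (peony), each at 20, 100 and 500 µg/mL. The vehicle group carried 0.1% DMSO per its labels, while the series text gives 2%. No DMSO content is given for the wortmannin and extract groups, and no genetic change of the line is stated. The sample descriptions begin with A1 for vehicle, 1 for wortmannin, 2 for Poria and Atractylodes, 3 for licorice and ginseng, and 4 for angelica and peony. What these numbers mark is not given, so a difference from vehicle cannot be told apart from a difference between these sets, while doses of 1 extract, and the extracts of a pair, share a set. The titles of all samples, vehicle included, name the same BatchA, and what that batch covers is not given either. The labels do not tell whether replicates were grown apart, so p-values reflect only the spread between these libraries, which may be technical.

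Total counts ran between 20.9 M and 33.4 M per library. The 10 hepatocyte markers examined were all expressed, with ALB at a median of 14140 CPM (a gene's count scaled to the library total) and AFP, a fetal liver and hepatoma marker, at 15772 CPM. PTPRC, the pan-leukocyte marker, was at 0 in all 60 libraries, and of the 7 fibroblast and stellate genes COL1A2, COL3A1, DCN and LUM were at a median of 0, COL1A1 and THY1 were under 1 CPM and ACTA2, smooth muscle actin, had a median of 67.4 CPM (32.4 to 77.4 CPM). This list summed to 32.6 to 77.9 CPM per library, nearly all of it ACTA2, and averaged 53.3 CPM with wortmannin, 33.9 CPM with Poria at 500 µg/mL and 66.5 CPM with vehicle; 1 of its 2 genes past the filter fell in each of these comparisons with vehicle and between 500 and 20 µg/mL of Poria. The summed blood cell list ran from 1336 to 2870 CPM, nearly all of it LYZ (median 1708 CPM), and averaged 2257 CPM with wortmannin, 2393 CPM with Poria at 500 µg/mL and 1405 CPM with vehicle. CD68, also of this list, had a median of 52.9 CPM (39.3 to 78.1 CPM). Of the list's 4 genes past the filter, 3 rose in each of these comparisons with vehicle and between 500 and 20 µg/mL of Poria. Mitochondrially encoded genes took 8.1% to 15.2% of the counts, with averages of 12.4% with wortmannin, 12.6% with Poria at 500 µg/mL and 11% with vehicle. The part of these in the results was not tested.

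A cell enters mitosis when CDK1 bound to cyclin B is switched on by CDC25 phosphatases, with the kinases PLK1 and AURKA acting beside it. The mitotic kinesins and their partners then build the spindle, the kinetochore ties chromosomes to it, and the checkpoint proteins hold back the ubiquitin ligase APC/C until every chromosome is attached. CDC20 and the ubiquitin-conjugating enzyme UBE2C then drive the destruction of securin (PTTG1) and cyclin B, the chromosomes part, and the cell divides. Most of these genes are transcribed late in the cell cycle, and their promoters are known to be bound by NF-Y at CCAAT boxes and by MuvB complexes, with B-MYB and FOXM1 in G2 and as the DREAM repressor in resting cells, at the cell cycle genes homology region (CHR).

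Promoter sequences, taken from RefSeq on GRCh38.p14 as 250 bases before to 50 after the start, were found for 38 of the 45 members, over 48 listed starts. The motifs searched on both strands were CCAAT and, as the CHR, TTTGAA or TTCGAA. Other forms of the CHR were not searched, so a promoter without a match may still hold one. The first motif, CCAAT, was present at 77.1% of the members' starts and at 34.6% of the 35116 starts of all genes. A CHR was present at 66.7% of the members' starts and at 16.4% of all starts, and both motifs at 56.2% of the members' starts and 6.38% of all starts. The sequences below are those of the 3 members that fell most with wortmannin (CDC20, PLK1 and CCNB1), of the member that fell most between the Poria doses (HMMR) and of the member that moved apart from the others with the extracts (ECT2). Each runs 5′ to 3′ on the plus strand, at chr1:43358731-43359030, chr16:23678639-23678938, chr5:69166900-69167199, chr5:163460382-163460681 and chr3:172750476-172750775 in the order given, and capitals mark these motifs and their reverse complements. In HMMR a CCAAT overlaps a match on the other strand, and a pair of TTTGAA follow each other.
CDC20: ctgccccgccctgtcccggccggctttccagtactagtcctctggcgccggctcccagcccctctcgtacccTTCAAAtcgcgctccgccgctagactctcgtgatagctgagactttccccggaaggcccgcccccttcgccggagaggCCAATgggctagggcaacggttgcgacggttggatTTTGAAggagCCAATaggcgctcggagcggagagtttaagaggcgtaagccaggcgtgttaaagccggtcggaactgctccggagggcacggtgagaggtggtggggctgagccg
PLK1: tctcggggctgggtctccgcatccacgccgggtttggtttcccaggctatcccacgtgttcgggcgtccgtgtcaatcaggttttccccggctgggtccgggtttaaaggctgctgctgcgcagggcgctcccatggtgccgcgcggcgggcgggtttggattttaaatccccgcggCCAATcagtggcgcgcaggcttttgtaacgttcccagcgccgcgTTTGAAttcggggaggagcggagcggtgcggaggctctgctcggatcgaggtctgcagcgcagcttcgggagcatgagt
CCNB1: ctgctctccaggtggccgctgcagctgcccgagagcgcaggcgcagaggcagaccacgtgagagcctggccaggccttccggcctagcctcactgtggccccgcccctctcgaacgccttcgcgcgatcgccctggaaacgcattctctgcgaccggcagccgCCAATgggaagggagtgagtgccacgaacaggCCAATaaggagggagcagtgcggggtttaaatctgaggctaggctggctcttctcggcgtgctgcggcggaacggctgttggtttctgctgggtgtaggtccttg
HMMR: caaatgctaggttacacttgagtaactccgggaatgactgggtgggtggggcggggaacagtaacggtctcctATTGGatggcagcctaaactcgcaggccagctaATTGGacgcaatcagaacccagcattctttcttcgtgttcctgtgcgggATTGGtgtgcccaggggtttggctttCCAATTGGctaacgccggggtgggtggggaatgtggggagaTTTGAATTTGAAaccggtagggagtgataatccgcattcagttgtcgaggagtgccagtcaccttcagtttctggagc
ECT2: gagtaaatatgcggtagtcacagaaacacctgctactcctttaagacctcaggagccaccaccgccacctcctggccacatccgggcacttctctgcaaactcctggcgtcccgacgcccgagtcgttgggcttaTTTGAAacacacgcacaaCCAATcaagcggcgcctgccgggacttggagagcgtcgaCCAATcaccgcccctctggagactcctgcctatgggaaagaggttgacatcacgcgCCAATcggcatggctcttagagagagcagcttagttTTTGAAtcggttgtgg
CDC20 held CCAAT 100 and 55 bases before the start and TTTGAA 65 bases before it, and PLK1 held CCAAT at 73 and TTTGAA at 29 bases before the start. In CCNB1, CCAAT was found at 87 and 55 bases before the start and neither of the CHR forms searched was found in this window. HMMR held TTTGAA at 28 and 22 bases before the start and 5 CCAAT letters on either strand. ECT2, with 3 CCAAT and a TTTGAA on either side of the start, did not lack the motifs of the others. A letter match is a description of the sequence and not a bound site.

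With wortmannin all 45 members fell, against 24% of all genes tested (the share past an adjusted p of 0.05 downward in edgeR), and none rose, against 22.4% of all genes. The median log2 change of the members was -1.15, and that of all genes was 0.01. The summed level of the 45 members was 2111, 2037 and 2000 CPM in the wortmannin libraries, against 4997, 4875 and 4809 CPM in the vehicle libraries, so that wortmannin cells held 41.9% of the vehicle level. The wortmannin libraries lay below all vehicle libraries in each of the 45 members, and the share of all genes separated in this way was not computed. In bulk RNA, fewer cells in G2 and mitosis and less of these RNAs per cell cannot be told apart.

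**Figure D1:**
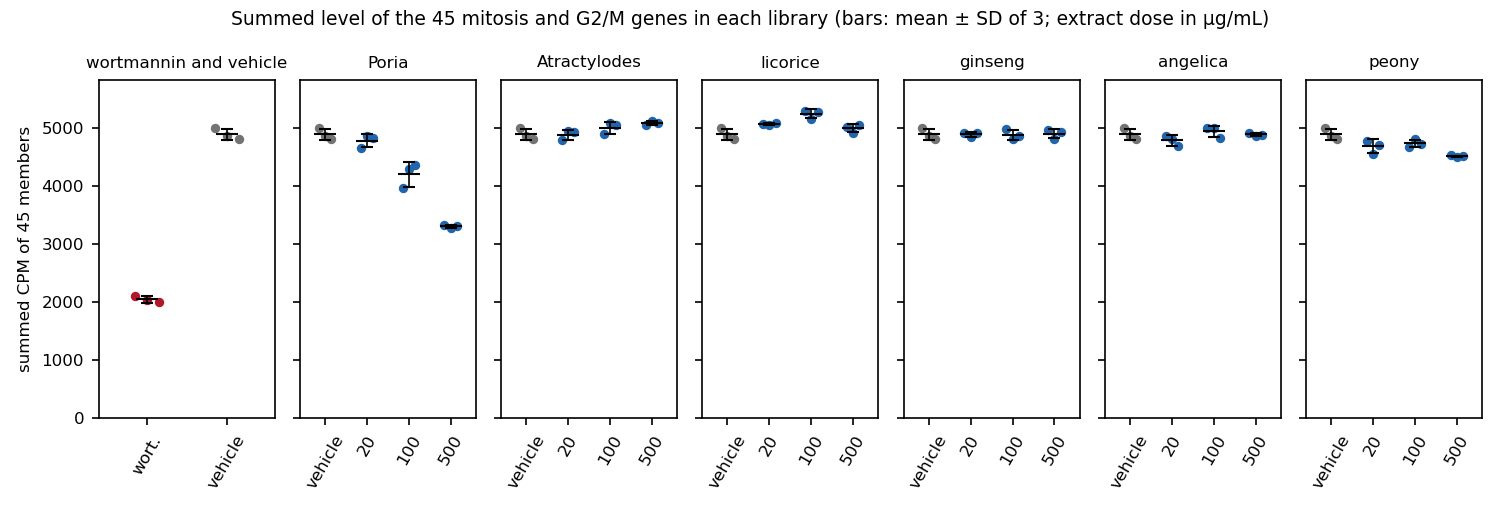
Summed CPM of the 45 members in each of the 60 libraries (points), with the mean and SD of 3 libraries (bars); the vehicle libraries are repeated in each panel and extract doses are in µg/mL. Wortmannin (2000 to 2111 CPM) and Poria at 500 µg/mL (3278 to 3336 CPM) stand below the vehicle libraries (4809 to 4997 CPM), and the Poria level steps down with dose.

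CDC20, the APC/C activator, fell most, with 33.8, 32.5 and 31.2 CPM in the wortmannin libraries against 113, 117 and 102 CPM in the vehicle libraries. It was 3.37-fold lower (log2 -1.75 ± 0.052, SE, adjusted p = 9.61e-32 in edgeR's quasi-likelihood test, used throughout with Benjamini-Hochberg adjustment over all genes). PLK1 stood at 111, 98.0 and 100.1 CPM with wortmannin against 346, 318 and 319 CPM with vehicle, a 3.14-fold fall (log2 -1.65 ± 0.055). Cyclin B1 (CCNB1) stood at 44.1, 44.2 and 43.4 CPM against 139, 139 and 130 CPM, a 3.06-fold fall, and KIF20A, a kinesin of the central spindle, at 31.2, 30.9 and 29.1 CPM against 94.2, 91.9 and 91.5 CPM, a 3.01-fold fall. In these 4 genes the wortmannin libraries sat at about the same level as one another, far under the lowest vehicle library.

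The fall ran through each of the 8 roles, with role medians between -1.10 and -1.31. Among the genes of entry into mitosis the median was -1.23: AURKA fell by 1.31, CCNA2 by 1.26, CCNB2 by 1.23, FOXM1, a transcription factor of G2 genes, by 1.13 and CDK1 by 1.05 on the log2 scale. CDK1 held 34.6, 37.5 and 36.7 CPM in the wortmannin libraries against 80.6, 77.3 and 69.9 CPM in the vehicle libraries. The phosphatase genes CDC25B (-0.67 ± 0.038) and CDC25C (-0.96 ± 0.064) fell least in this role. Of the chromosomal passenger complex, which corrects faulty attachments and guides cytokinesis, BIRC5 (survivin) fell by 1.46, CDCA8 (borealin) by 1.39, the kinase AURKB by 1.15 and the scaffold INCENP by 1.03.

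In the kinetochore, all 7 members fell, from CENPE, a kinesin that moves chromosomes to the plate (-1.32 ± 0.102), and CENPA, the histone H3 variant of centromeres (-1.30 ± 0.069), to SPC24 of the NDC80 complex (-0.73 ± 0.088). The checkpoint genes BUB1 (-1.30 ± 0.052), BUB1B (-1.14), TTK (-1.14) and MAD2L1 (-1.10 ± 0.072) fell together. BUB3, their partner, which also has roles outside mitosis, fell least of all 45, with 93.3, 93.6 and 94.0 CPM with wortmannin against 129, 134 and 130 CPM with vehicle (log2 -0.47 ± 0.039, adjusted p = 1.36e-14). Among the other kinesins KIF11, which pushes the spindle poles apart, fell by 1.01, and the spindle factors DLGAP5 and TPX2, an activator of AURKA, fell by 1.45 and 1.33. The proliferation marker MKI67 stood at 175, 166 and 167 CPM against 392, 397 and 415 CPM, and topoisomerase II alpha (TOP2A) at 221, 209 and 205 CPM against 583, 555 and 556 CPM. Both pairs of groups were far apart, and in log2 MKI67 fell by 1.23 and TOP2A by 1.40.

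**Figure D2:**
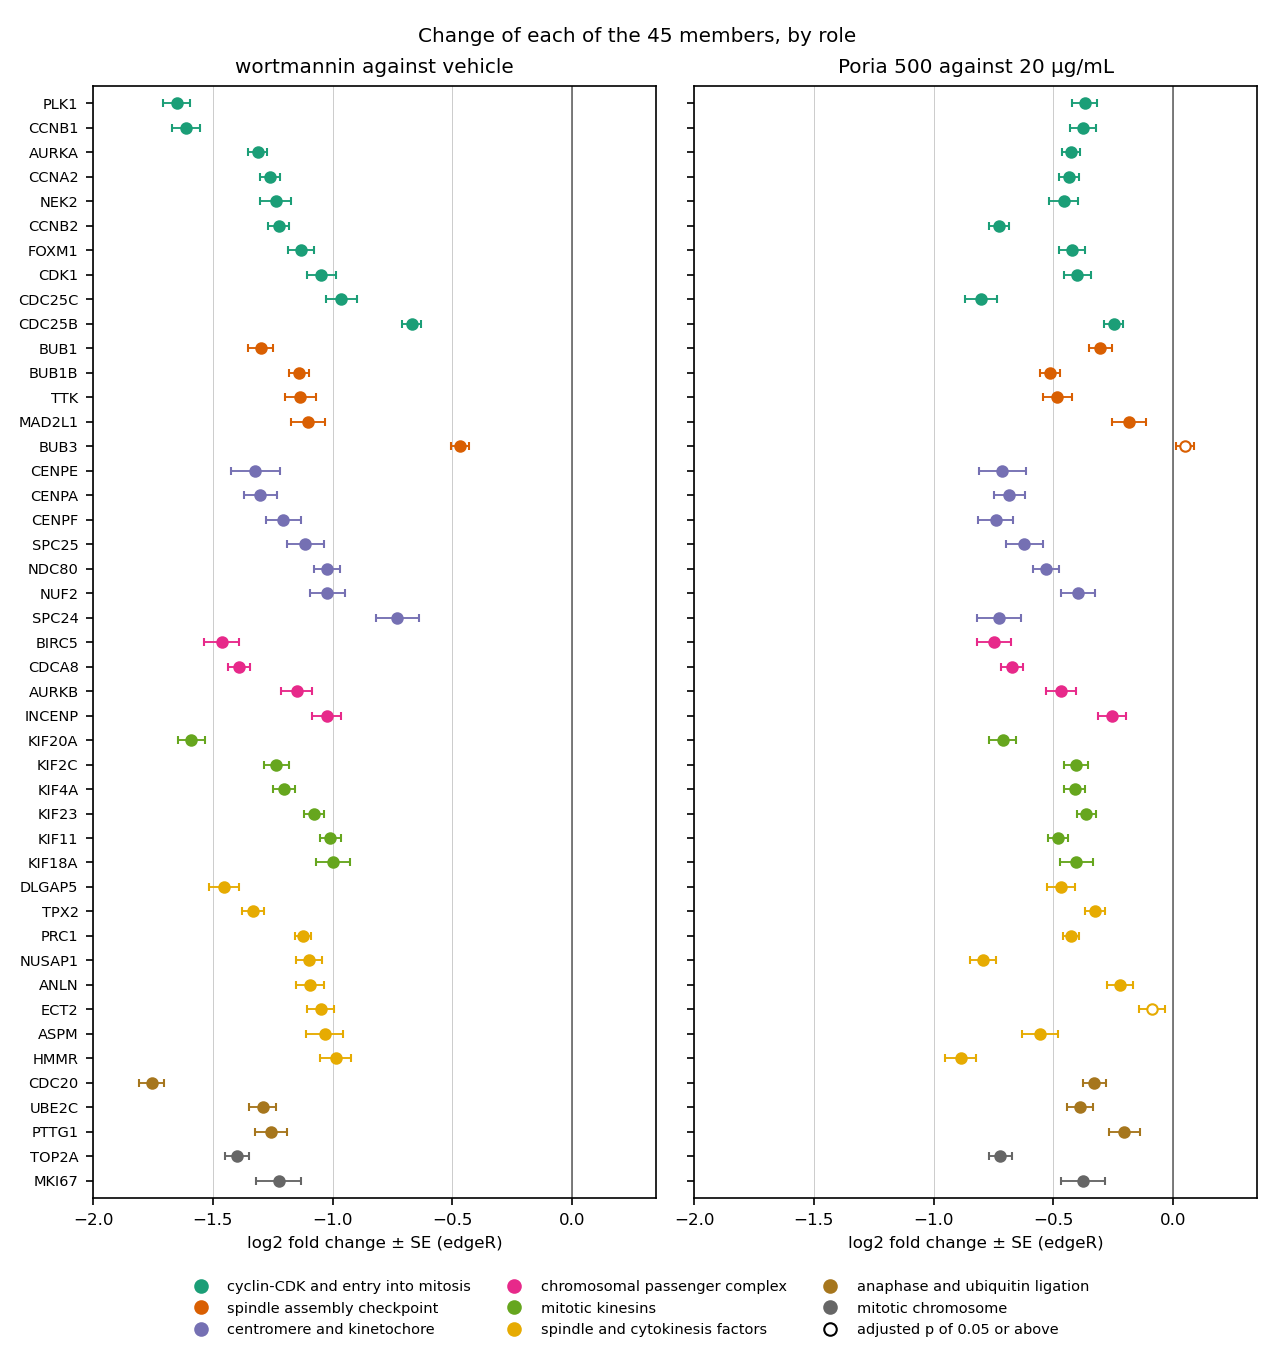
Log2 fold change ± SE of each of the 45 members (rows, coloured by role) for wortmannin against vehicle (left) and Poria at 500 against 20 µg/mL (right); open points have an adjusted p of 0.05 or above. All 45 lie left of 0 with wortmannin, 43 passed with Poria, and the order of members differs between the panels.

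Poria was the extract whose dose moved these genes together. At 500 against 20 µg/mL, a comparison within a set, 43 of the 45 members fell and none rose, against 21.2% and 22.3% of all genes. The median log2 change was -0.43 for the members and -0.01 for all genes. The members summed to 4660, 4864 and 4835 CPM at 20 µg/mL, 3963, 4293 and 4361 CPM at 100 µg/mL, and 3336, 3278 and 3307 CPM at 500 µg/mL. The 3 doses did not overlap in this sum, and the highest dose held 67.6% of the vehicle level. In 44 members all 500 µg/mL libraries lay below all 20 µg/mL libraries in CPM, and BUB3 was the exception. The 44 include ECT2, which did not pass the test. CPM lack the scaling factors (TMM) of the fold changes, which differ by -0.08 in log2 between these doses. The share of all genes separated in this way was not computed.

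HMMR, a spindle protein named for its binding of hyaluronan, fell most over the doses. Its level was 48.2, 52.5 and 48.6 CPM at 20 µg/mL, 39.6, 41.6 and 41.4 CPM at 100 µg/mL, and 23.6, 26.6 and 26.5 CPM at 500 µg/mL, so that no dose overlapped another (1.85-fold lower at 500 than at 20 µg/mL, log2 -0.89 ± 0.065, adjusted p = 2.19e-16). CDC25C, which activates CDK1, stood at 20.6, 19.8 and 21.1 CPM, then 15.3, 16.5 and 17.1 CPM, then 11.7, 10.3 and 11.3 CPM (log2 -0.80 ± 0.066 for 500 against 20 µg/mL). Both genes were lower at each step of dose.

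NUSAP1, which ties spindle microtubules to chromosomes, stood at 83.2, 87.5 and 86.2 CPM at 20 µg/mL, 61.6, 68.5 and 70.2 CPM at 100 µg/mL and 46.3, 44.4 and 49.7 CPM at 500 µg/mL (log2 -0.79 ± 0.054 for 500 against 20 µg/mL). BIRC5 stood at 166, 137 and 157 CPM, then 161, 127 and 116 CPM, then 82.5, 91.2 and 85.5 CPM (log2 -0.75 ± 0.071). In BIRC5 the 20 and 100 µg/mL libraries overlapped, and the 500 µg/mL libraries lay below both doses.

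By role, the kinetochore genes had the lowest median between the Poria doses: 7 of 7 fell, with a median of -0.68, from CENPF (-0.74 ± 0.072) and SPC24 (-0.73 ± 0.091) to NUF2 (-0.40). CENPF, a large coiled-coil protein of the outer kinetochore, stood at 173, 193 and 190 CPM at 20 µg/mL, 139, 153 and 154 CPM at 100 µg/mL and 108, 101 and 105 CPM at 500 µg/mL. All 4 passenger complex genes fell (median -0.57), with CDCA8 at -0.67 and INCENP at -0.25, and so did TOP2A (-0.72 ± 0.048) and MKI67 (-0.38 ± 0.091). The 6 kinesins (median -0.41) and the 10 genes of entry into mitosis (median -0.42) all fell as well, led by KIF20A at -0.71 and, after CDC25C, by CCNB2 at -0.73.

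The anaphase genes and the checkpoint genes moved least. CDC20 stood at 72.5, 73.7 and 73.7 CPM at 500 µg/mL against 93.5, 99.8 and 98.4 CPM at 20 µg/mL, and its log2 change of -0.33 ± 0.049 lay above the members' median, although CDC20 had fallen most with wortmannin. UBE2C fell by 0.39 and PTTG1 by 0.20 on the log2 scale, and of the checkpoint genes BUB1B fell by 0.51, TTK by 0.48, BUB1 by 0.30 and MAD2L1 by 0.18. MAD2L1 (adjusted p = 0.0282) and PTTG1 (0.007) lost their calls without replicate 3 of the 20 µg/mL group, and MAD2L1 also without replicate 1 of either group, where the highest adjusted p over the alternatives was 0.154 for MAD2L1 and 0.0992 for PTTG1.

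BUB3 and ECT2 did not pass. BUB3 held 129, 123 and 135 CPM at 20 µg/mL, 124, 132 and 127 CPM at 100 µg/mL and 123, 127 and 129 CPM at 500 µg/mL (log2 0.05 ± 0.039 for 500 against 20 µg/mL, adjusted p = 0.317). ECT2, an activator of RhoA at the site of cell cleavage, held 73.5, 79.8 and 80.9 CPM, then 66.8, 78.2 and 79.6 CPM, then 65.6, 71.0 and 72.0 CPM (log2 -0.09 ± 0.053, adjusted p = 0.176). In both genes the 20 and 100 µg/mL libraries overlapped, and a p above the threshold does not show that they held still.

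The larger share of the change lay in the upper dose step. Between 20 and 100 µg/mL, 22 members fell and none rose (8.99% and 9.84% of all genes), with a median of -0.13, and TTK (-0.40 ± 0.061), CENPA (-0.34), NUSAP1 (-0.32) and CENPE (-0.29) changed most. Between 100 and 500 µg/mL, 41 members fell and none rose (8.34% and 10.9% of all genes), with a median of -0.31, led by HMMR (-0.64 ± 0.067), BIRC5 (-0.61), CDC25C (-0.52) and SPC24 (-0.49). TTK, which changed most in the lower step, was at 18.7, 18.8 and 19.9 CPM at 500 µg/mL against 18.8, 21.4 and 22.3 CPM at 100 µg/mL, and did not pass in the upper step (-0.09 ± 0.064, adjusted p = 0.377), nor did ECT2, KIF18A and BUB3. Replicate 1 of the 100 µg/mL group had the lowest summed level of that group (3963 CPM) and the highest mitochondrial share of all 60 libraries (15.2%), and without it the count between 20 and 100 µg/mL was 14.

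**Figure D3:**
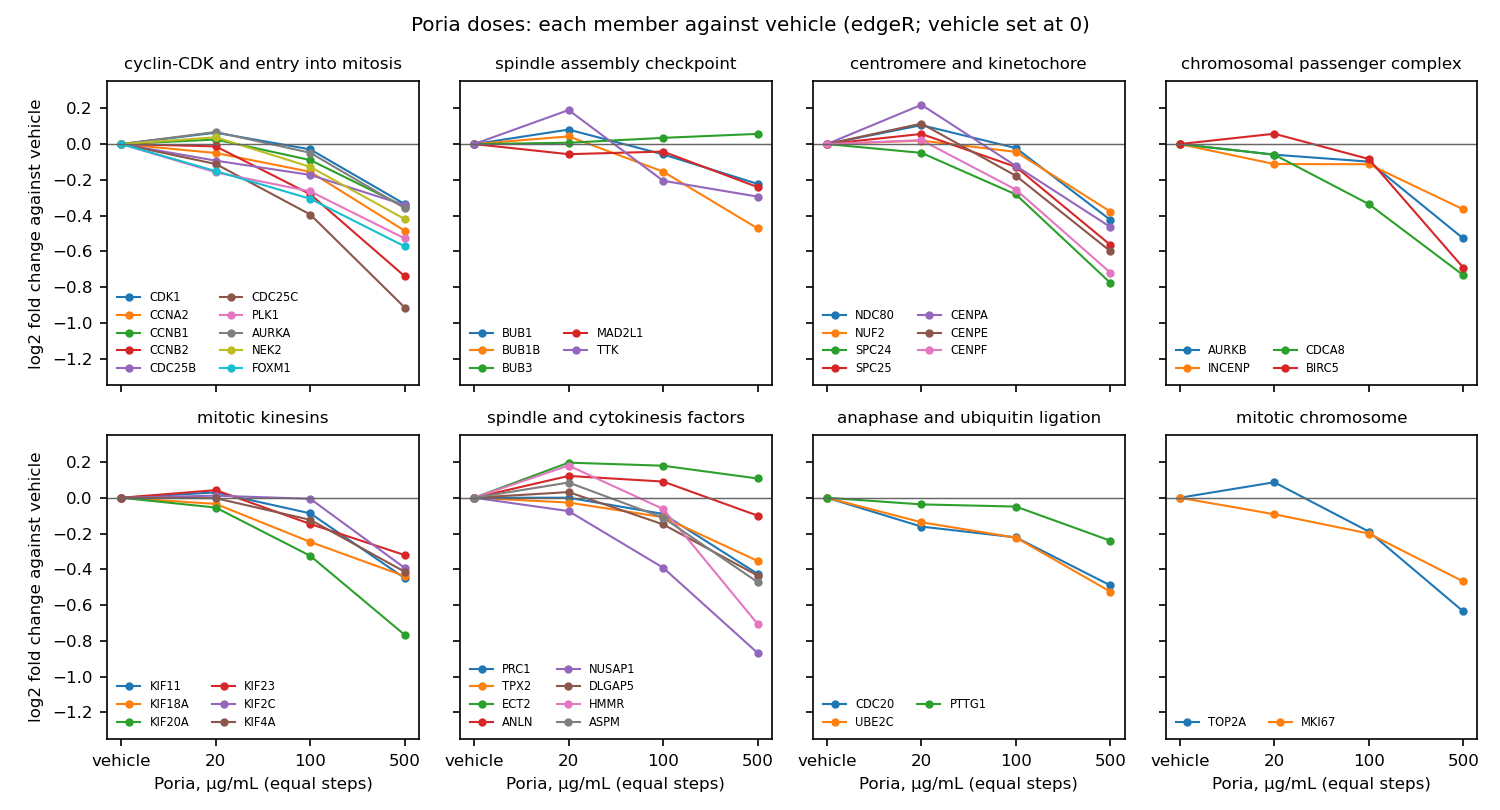
Log2 fold change of each member against vehicle (set at 0) at 20, 100 and 500 µg/mL of Poria, in 1 panel per role; the dose axis has equal steps. Most lines turn down between 100 and 500 µg/mL, and ECT2 (0.11) and BUB3 (0.06) end above 0.

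Against vehicle, Poria at 500 µg/mL lowered 42 of the 45 members and raised none, where 23.7% of all genes fell and 23.9% rose. The median was -0.45, and CDC25C (-0.91 ± 0.065), NUSAP1 (-0.87), SPC24 (-0.78) and KIF20A (-0.77) fell most. ANLN, the anillin scaffold of the cleavage furrow, stood at 111, 109 and 118 CPM at 500 µg/mL against 133, 128 and 129 CPM with vehicle, without overlap in CPM, and did not pass after scaling (-0.10 ± 0.056, adjusted p = 0.14), nor did ECT2 (0.11 ± 0.053) and BUB3 (0.06 ± 0.039). The levels in CPM are scaled to the library total, whereas the fold changes are scaled by TMM factors, which at 500 µg/mL of Poria differ from those of vehicle by -0.11 in log2. On unscaled CPM the members' median was -0.56, and ECT2 was at 0.00 in place of 0.11.

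At 100 µg/mL, 21 members were lower than with vehicle and 1, ECT2, was higher (15.3% and 15.1% of all genes); ECT2 lost its call without replicate 2 of vehicle or replicate 3 of Poria at 100 µg/mL. At 20 µg/mL, CDC20 alone was lower (93.5 to 99.8 CPM against 102 to 117 CPM with vehicle, 1.71% of all genes) and CENPA and ECT2 were higher (2.09%). No member was lower there without replicate 1 or 2 of vehicle or any 1 of the Poria libraries, and none was higher without replicate 2 of vehicle or replicate 3 of Poria, with 1 higher without replicate 1 of vehicle and 2 lower without replicate 3 of vehicle. CENPA stood at 32.5, 28.9 and 30.7 CPM at 20 µg/mL against 26.4, 25.9 and 28.2 CPM with vehicle, and then fell below vehicle at 500 µg/mL, to 17.2, 19 and 18 CPM.

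Set beside wortmannin, Poria at 500 µg/mL left 43 members higher and none lower, where 31.7% of all genes were higher and 28.2% lower. The median difference was 0.76, and it was widest for CDC20 (1.26 ± 0.053), CCNB1 (1.26 ± 0.058), ECT2 (1.16) and PLK1 (1.12). CDC25C and SPC24 did not pass: CDC25C stood at 11.7, 10.3 and 11.3 CPM with Poria against 12.1, 10.5 and 11.7 CPM with wortmannin (0.05 ± 0.071, adjusted p = 0.573), and SPC24 at 10.1, 10.7 and 8.93 CPM against 12, 11.5 and 9.26 CPM (-0.05 ± 0.097, adjusted p = 0.697). The libraries of the treatments overlapped in both, and in NUSAP1, which passed (0.23 ± 0.057). HMMR was 1.22-fold higher with Poria.

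Some members share their locus with another gene, and whether the counting used strand is not given. FAM53C, which overlaps CDC25C on the other strand, averaged 54.8 CPM over all libraries against 21.0 CPM for CDC25C, and between 500 and 20 µg/mL of Poria it changed by 0.01 ± 0.049 (adjusted p = 0.851). RHNO1 overlaps FOXM1 on the other strand, at 39.4 CPM against 152 CPM, and fell by 0.45 in log2 between the Poria doses. BRD8 and CDC23 overlap KIF20A on the other strand, at 66.5 and 53.1 CPM against 86.6 CPM, and fell by 0.35 and 0.15. CENPA overlaps SLC35F6 on its own strand (43.8 CPM against 28.1 CPM), which rose by 0.33. Reads of these pairs may be counted for either gene, and their part in the values was not tested. Near-identical copies named in the table (AURKAP1, CDC20P1, KIF4B and a copy of MAD2L1) each averaged under the level of any member, at 0.0432 to 0.259 CPM, and read-through annotations of NUSAP1 and PRC1 were not used here. SPC25 shares a stretch with PARP15 (0.114 CPM) and SPIN3 (3.57 CPM).

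For Atractylodes, the other extract of the set, no member passed with dose. Between 500 and 20 µg/mL none fell and none rose in edgeR (0.0373% and 0.0124% of all genes), 2 had an unadjusted p below 0.05, and DESeq2 also called none. Poria at 500 µg/mL stood below Atractylodes at 500 µg/mL in 44 members (21.1% of all genes were lower), with a median of -0.49. In CPM, without the TMM factors, its libraries lay below all Atractylodes libraries in all 45. Those factors differ by -0.12 in log2 between these groups, and the share of all genes separated in this way was not computed. CDC25C (-0.92), CENPF (-0.84), NUSAP1 (-0.84) and KIF20A (-0.82) differed most, and BUB3 did not pass (0.00, adjusted p = 0.973). The summed levels were 3336, 3278 and 3307 CPM with Poria, against 5065, 5125 and 5093 CPM with Atractylodes.

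The change with dose differed between the extracts. In a joint test that the 500 against 20 µg/mL change is the same in all 6 extracts, 42 of the 45 members passed, against 35.1% of all genes, and ECT2, BUB3 and MAD2L1 did not. The Poria change lay below the mean of the other 5 extracts in 43 members (17.8% of all genes), by a median of -0.45, with HMMR at -0.89, CDC25C at -0.82, SPC24 at -0.75 and CENPF at -0.74. When Poria was left out, a step added after the data were seen, 2 members passed the joint test over the other 5 extracts, KIF4A (adjusted p = 0.0259) and CDC20 (0.0195), against 10.8% of all genes.

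**Figure D4:**
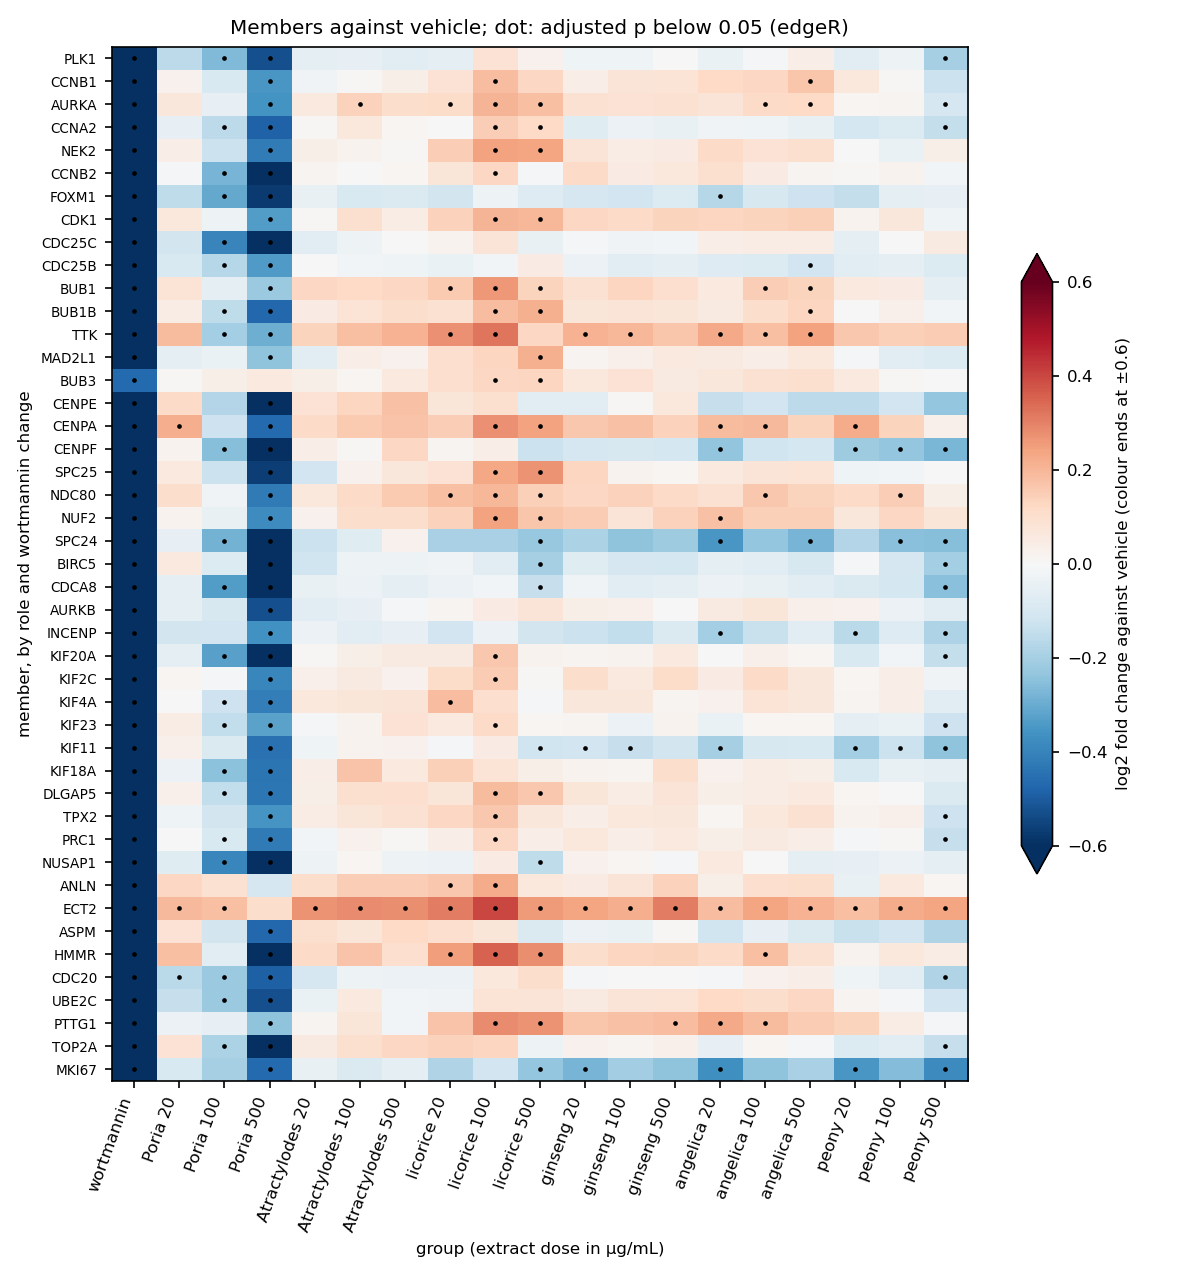
Log2 fold change against vehicle of the 45 members (rows, by role and wortmannin change) in the 19 treated groups (columns, doses in µg/mL); dots mark an adjusted p below 0.05 and colours end at ±0.6. Wortmannin and Poria at 500 µg/mL form the blue columns, licorice at 100 µg/mL carries 24 red dots, and ECT2 is red in the extract groups.

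Against vehicle, which has a set number of its own, licorice had its clearest count of members at the middle dose. At 20 µg/mL 8 members were already higher than with vehicle (5.89% of all genes). Within the set, at 100 against 20 µg/mL, 1 member rose (0.671% of all genes). At 100 µg/mL 24 members were higher than with vehicle and none lower, against 8.76% and 7.68% of all genes, with a median of 0.12. HMMR stood at 58.0, 54.5 and 58.8 CPM at 100 µg/mL against 45, 42.1 and 47.3 CPM with vehicle (log2 0.36 ± 0.060, adjusted p = 3.23e-05), and TTK at 30.8, 30.9 and 32.6 CPM against 25.9, 25.3 and 24.5 CPM (0.32 ± 0.058). Neither gene overlapped with vehicle. ECT2 (0.40) and PTTG1 (0.28) completed the 4 largest rises, and without replicate 3 of vehicle 15 members passed.

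At 500 µg/mL licorice had 6 members lower and 16 higher than vehicle (15.7% and 16.7% of all genes), so that the lower count was near the share of all genes. MKI67 (-0.23), SPC24 (-0.23), BIRC5 (-0.20), NUSAP1 (-0.15), CDCA8 (-0.14) and KIF11 (-0.12) were lower, and HMMR (0.28), PTTG1 (0.27), SPC25 (0.27) and ECT2 (0.26) led those that were higher. Leaving out 1 library left 1 to 4 of the lower calls, with the fewest (1) without replicate 2 or 3 of licorice at 500 µg/mL, 2 without replicate 1 or 3 of vehicle and 3 without replicate 2 of vehicle, and left 10 to 16 of the higher calls, with the fewest without replicate 3 of vehicle.

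Within the licorice doses, 500 against 20 µg/mL, 2 members fell and 3 rose, under the 10.3% and 11% of all genes that did. KIF4A, a kinesin on chromosome arms, stood at 66.8, 68.6 and 65.3 CPM at 20 µg/mL, 60.7, 62.9 and 64.6 CPM at 100 µg/mL and 57.7, 57.9 and 60.2 CPM at 500 µg/mL, without overlap of the end doses (-0.20 ± 0.043, adjusted p = 0.000394), and at 20 µg/mL it was above vehicle (0.19). TOP2A fell by 0.17. CDC20 (0.14), CCNA2 (0.12) and BUB1B (0.12) rose, and lost their calls under several alternatives. Without 1 library the 2 lower became 4 (replicate 1 at 500 or replicate 2 at 20 µg/mL) or 1 (replicate 2 at 500 or replicate 1 at 20 µg/mL), and the 3 higher became 1 without any 1 of the 500 µg/mL libraries or replicate 2 at 20 µg/mL. Licorice at 500 against 100 µg/mL lowered 5 members and raised none (4.79% and 4.32% of all genes), namely TTK and NUSAP1 by 0.20 each, KIF11 by 0.17, TOP2A by 0.16 and CCNB2 by 0.14. The 5 became 1 without replicate 2 at 500 µg/mL, 2 without replicate 3 at 100 µg/mL and 3 without replicate 3 at 500 or replicate 1 at 100 µg/mL. At 100 against 20 µg/mL of licorice CCNA2 alone rose (0.671% of all genes rose), and lost its call without any 1 of the 100 µg/mL libraries or replicate 2 or 3 at 20 µg/mL.

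Peony at 500 µg/mL had 16 members lower than vehicle and 1 higher, ECT2 (9.98% and 9.68% of all genes), with a median of -0.08. MKI67 stood at 315, 303 and 313 CPM against 392, 397 and 415 CPM with vehicle (-0.38 ± 0.0905, adjusted p = 0.00167), CENPF at 157, 149 and 160 CPM against 183, 189 and 187 CPM, and KIF11 at 77.7, 80.1 and 80.7 CPM against 91.9, 92.4 and 95.1 CPM. None of these 3 overlapped with vehicle, but all 3 were already lower at 20 µg/mL of peony, where MKI67 stood at 331, 258 and 356 CPM (-0.35), and none changed between 500 and 20 µg/mL by the test, with adjusted p of 0.918 for MKI67, 0.761 for CENPF and 0.749 for KIF11. Fewer members passed without replicate 1 of vehicle (7), replicate 2 of vehicle (9) or replicate 2 of peony at 500 µg/mL (9).

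Between the peony doses, 500 against 20 µg/mL, 3 members fell and none rose, against 1.7% and 1.78% of all genes. CCNB1 stood at 122, 135 and 118 CPM at 500 µg/mL against 141, 152 and 131 CPM at 20 µg/mL, with overlapping libraries (-0.19 ± 0.054, adjusted p = 0.0294). CDCA8 stood at 54.5, 51.4 and 55.1 CPM against 62.4, 59.8 and 56.2 CPM (-0.16), and PRC1, which bundles the central spindle, at 117, 115 and 112 CPM against 125, 127 and 120 CPM (-0.12), both without overlap. Without replicate 2 at 20 µg/mL or replicate 3 at 500 µg/mL, 1 member passed. When only the groups compared were fitted none of the 3 passed, with adjusted p of 0.196 for CCNB1, 0.178 for CDCA8 and 0.238 for PRC1.

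Angelica at 500 µg/mL stood above peony at 500 µg/mL, its set partner, in 12 members and below in none (3.59% and 2.58% of all genes). The members were CCNB1 (151, 153 and 149 CPM with angelica against 122, 135 and 118 CPM with peony, log2 0.30 ± 0.054, adjusted p = 0.000182), UBE2C (0.24), PLK1 (0.24) and CDC20 (0.22), with AURKA, TPX2, BUB1, CDCA8, PRC1, KIF11, BUB1B and KIF23 below them. In CCNB1 and PLK1 (324, 351 and 328 CPM with angelica against 286, 292 and 286 CPM with peony) the groups did not overlap. Against vehicle, angelica at 500 µg/mL had 2 members lower, SPC24 (-0.28) and CDC25B (-0.11), and 6 higher, led by TTK (0.24), ECT2 (0.21), CCNB1 (0.17) and BUB1 (0.14), with 9.41% and 9.51% of all genes. The lower count was under the share of all genes, and the higher count was somewhat above it. The 6 became 10 without replicate 1 of vehicle and 2 without replicate 2 or 3 of vehicle or replicate 1 of angelica, and the 2 lower became 0 without replicate 1 of angelica and 1 without replicate 3 of angelica or replicate 1 or 3 of vehicle. Angelica showed no member past the threshold between 500 and 20 µg/mL in edgeR or DESeq2 (0.684% of all genes fell and 0.534% rose), and 3 had an unadjusted p below 0.05.

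Ginseng at 500 µg/mL had ECT2 and PTTG1 higher than vehicle and no member lower (4.66% and 5.58% of all genes), and its dose moved none in edgeR or DESeq2 (0.124% fell and 0.0249% rose), with 0 members at an unadjusted p below 0.05. Against vehicle, the higher count was near the share of all genes and the lower count under it. Without replicate 2 or 3 of vehicle or of ginseng 1 member was higher than vehicle, and without replicate 1 of ginseng 1 was lower. Licorice at 500 µg/mL stood above ginseng in 5 members, SPC25 (0.26 ± 0.071), NEK2 (0.19), CCNA2 (0.16), BUB1B (0.14) and CDC25B (0.10), and below it in NUSAP1 (-0.14), where 11.7% of all genes were higher and 10.7% lower. The higher count was thus near the share of all genes, and the lower count was under it. The 5 became 2 without replicate 2 of ginseng, and NUSAP1 lost its call without replicate 1 or 3 of ginseng or replicate 2 of licorice.

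ECT2 was above vehicle in 17 of the 18 extract groups, the exception being Poria at 500 µg/mL. Its level ran from 64.5 to 72.9 CPM in the vehicle libraries, and from 73.3 to 93.4 CPM in the 16 extract groups other than Poria at 100 and 500 µg/mL. The highest were 93.4, 91.6 and 89.4 CPM with licorice at 100 µg/mL (log2 0.40 ± 0.052, adjusted p = 1.99e-07), and the change was 0.18 to 0.31 in the other 16 that passed. Atractylodes at 500 µg/mL had ECT2 as its single changed member (0.28, adjusted p = 0.00452; 0.559% of all genes rose and 0.329% fell), at 78.0, 87.9 and 89.1 CPM, and lost this call without replicate 2 of vehicle or replicate 2 or 3 of Atractylodes (adjusted p up to 0.092). Replicate 2 of vehicle held its lowest vehicle level, and without it ECT2 also lost its call in angelica at 500 µg/mL (adjusted p = 0.0535), Poria at 20 and 100, Atractylodes at 20, ginseng at 100 and peony at 20 and 100 µg/mL. Between 500 and 20 µg/mL ECT2 did not pass in any of the 6 extracts. Since it was above vehicle at the lowest dose of each extract and vehicle has a set number of its own, this difference and the set cannot be told apart. With wortmannin, which also has its own set number, ECT2 stood at 33.9, 33.2 and 32.4 CPM, 2.07-fold below vehicle.

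**Figure D5:**
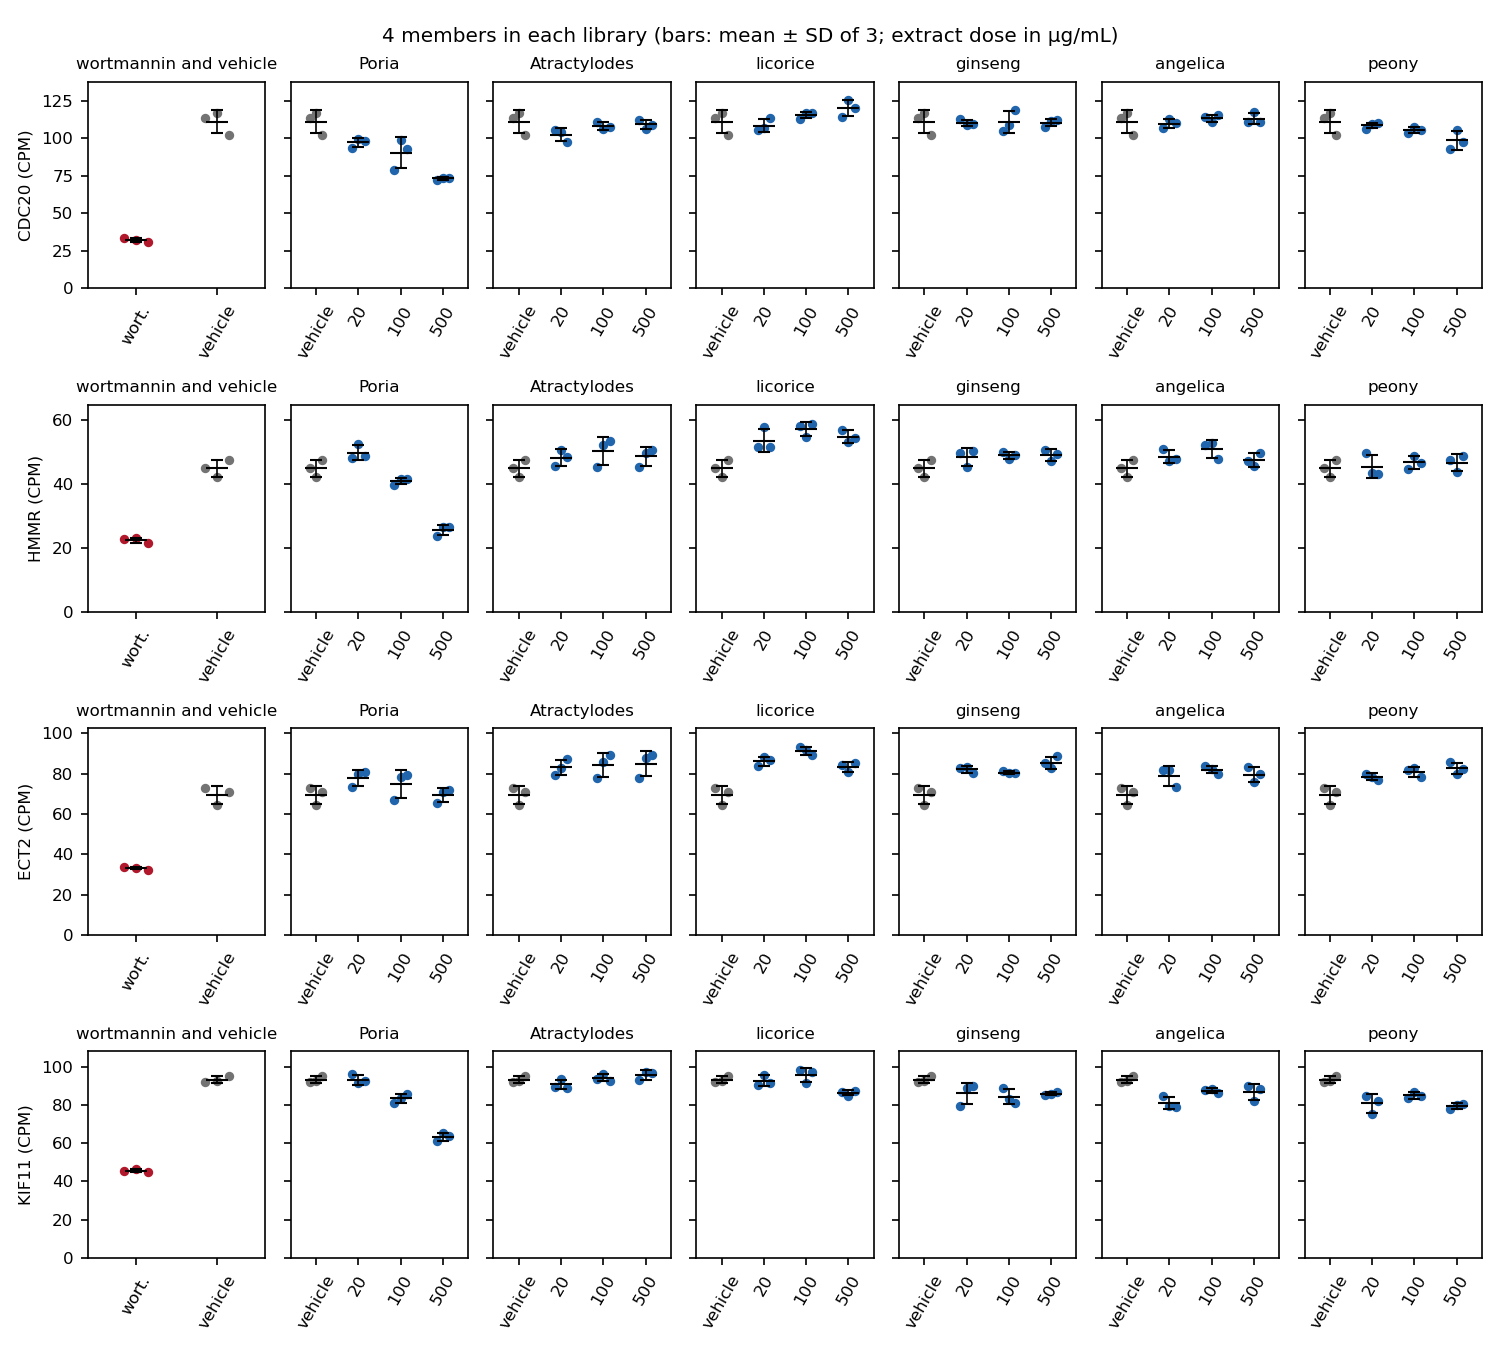
CPM of CDC20, HMMR, ECT2 and KIF11 (rows) in each library (points), with the mean and SD of 3 libraries (bars); wortmannin stands beside vehicle at the left and extract doses are in µg/mL. HMMR falls to 23.6 to 26.6 CPM at 500 µg/mL of Poria, ECT2 stands above vehicle in most extract panels, and KIF11 is under vehicle at each dose of peony.

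Angelica at its lowest dose had members called in shares near those of all genes. With angelica at 20 µg/mL 6 members were lower than vehicle, MKI67 (-0.37), SPC24 (-0.35), CENPF (-0.24), INCENP, KIF11 (-0.20) and FOXM1, and 5 were higher (12.2% and 12.1% of all genes). MKI67 stood at 347, 321 and 266 CPM there, below all vehicle libraries. Between 500 and 20 µg/mL of angelica the adjusted p was 0.508 for MKI67, 0.876 for SPC24, 0.526 for CENPF and 0.249 for KIF11. Of these 6, only SPC24 was also lower than vehicle by the test at 500 µg/mL, and none was at 100 µg/mL. The 6 lower became 3 without replicate 3 of angelica at 20 µg/mL, and the 5 higher became 2 without that library or without replicate 2 of vehicle.

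At the lower doses of the other extracts few members differed from vehicle, and the counts of ginseng and peony were near or under the shares of all genes. At 100 µg/mL Atractylodes had AURKA (0.14) and ECT2 higher and none lower (0.87% and 0.478% of all genes). Ginseng had TTK (0.20) and ECT2 higher and KIF11 (-0.14) lower at 100 µg/mL (4.13% and 4.4% of all genes). Angelica had 8 higher and none lower (6.97% and 7.65%), led after ECT2 by CENPA (0.19), PTTG1 (0.19) and TTK (0.18), and the 8 became 1 without replicate 1 of angelica, 2 without replicate 2 of vehicle and 3 without replicate 3 of vehicle or replicate 2 of angelica. Peony had NDC80 (0.15) and ECT2 higher and SPC24 (-0.25), CENPF (-0.23) and KIF11 (-0.13) lower (4.78% and 5.26%). Leaving out any 1 of the vehicle or peony libraries left 0 to 1 higher and 0 to 1 lower in peony at 100 µg/mL. Leaving out 1 library left 0 to 3 higher in Atractylodes, with 0 without its replicate 3, and 0 to 5 higher and 0 to 4 lower in ginseng, with 5 and 4 without its replicate 1, 0 higher without replicate 2 of vehicle and 0 lower without replicate 3 of vehicle or replicate 2 or 3 of ginseng.

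At 20 µg/mL Atractylodes had ECT2 alone higher and none lower (0.82% and 0.261% of all genes). Licorice had 8 higher and none lower (5.89% and 5.28%), led by ECT2 (0.31), TTK (0.27) and HMMR (0.25), and the 8 became 4 without replicate 2 or 3 of vehicle or replicate 2 of licorice. Ginseng had TTK (0.21) and ECT2 higher and MKI67 (-0.28) and KIF11 (-0.12) lower (6.72% and 7.15%). Peony had CENPA (0.22) and ECT2 higher and MKI67, CENPF, KIF11 and INCENP lower (7.57% and 8.19%). Without 1 library ginseng had 1 to 4 higher (1 without its replicate 1, 4 without replicate 1 of vehicle) and 0 to 1 lower (0 without its replicate 1 or replicate 2 or 3 of vehicle). Peony had 0 to 3 higher and 2 to 5 lower, with the fewest of each without its replicate 2 or replicate 2 of vehicle, and Atractylodes had none higher without its replicate 3 or replicate 2 of vehicle.

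Most lists of other cell cycle genes fell with wortmannin, where 24% of all genes fell and 22.4% rose. With wortmannin, 14 of 16 other G2/M control genes fell and none rose (median -0.79), among them CCNF (-1.24) and GTSE1 (-1.21), as did 29 of 30 other kinetochore genes (OIP5 -1.43, CENPW -1.36), 24 of 25 other spindle and cytokinesis genes (KIF18B -1.36, TACC3 -1.33) and all 19 condensin and cohesin genes (SGO2 -1.10, NCAPH -1.10). Of 17 APC/C subunits and regulators 11 fell and 1 rose, with a median of -0.25, less than those lists, led by the APC/C inhibitor FBXO5 (-0.83). Of 12 DREAM and MuvB genes 10 fell and 1 rose, led by MYBL2, which encodes B-MYB (-0.88 ± 0.040), and TFDP1 (-0.62). All 16 S phase genes fell (median -0.82; MCM2 -0.94, MCM7 -0.93), and 4 of 8 tested cell cycle inhibitors fell, led by CDKN2C (-0.54) and CDKN1A, the p21 gene (-0.40).

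Between 500 and 20 µg/mL of Poria, where 21.2% of all genes fell and 22.3% rose, 10 of 16 other G2/M control genes fell and 1 rose (STMN1 -0.59, GTSE1 -0.54), with 19 and 1 of 30 other kinetochore genes (MIS18A -0.71, ZWINT -0.54), 17 and 1 of 25 other spindle genes (HAUS4 -0.64, HAUS5 -0.58) and 14 and 0 of 19 condensin and cohesin genes (NCAPD2 -0.54, ESPL1 -0.43). APC/C genes had 4 lower and 2 higher of 17, a lower share near that of all genes, with a median of 0.01 beside -0.01 for all genes, FBXO5 (-0.30) and ANAPC16 (-0.27) changing most. DREAM and MuvB genes had 6 lower of 12 (TFDP2 -0.44, RBL1 -0.33), and S phase genes 12 lower and 1 higher of 16 (MCM2 -0.52, POLA1 -0.43). The cell cycle inhibitors went the other way, with 5 of 8 higher and 2 lower and a median of 0.39: CDKN2B (p15) rose by 0.95 ± 0.185, and CDKN2C (p18) fell by 0.73 ± 0.065.

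Between 500 and 20 µg/mL of peony, where 1.7% of all genes fell and 1.78% rose, 6 of 16 S phase genes fell and none rose (MCM3 -0.27 ± 0.030, FEN1 -0.20), beside the 3 members, and WEE1, the kinase that restrains CDK1, fell by 0.21. For licorice, where 10.3% of all genes fell and 11% rose, the 16 S phase genes had 2 lower and 2 higher. Of 17 APC/C genes 1 fell and 5 rose, and of 19 condensin and cohesin genes 4 fell and 1 rose. These 5 higher and 4 lower genes were larger shares than those of all genes. Of 30 other kinetochore genes 1 fell and 4 rose, and the other cell cycle lists had at most 1 gene past the threshold in a direction. The 10 hepatocyte markers had 9 lower and 1 higher between 500 and 20 µg/mL of licorice, and their part in the licorice values was not tested.

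The promoter letters searched did not separate the members by their change. The 29 members with a CHR match at any listed start had a median of -1.10 with wortmannin and -0.43 between the Poria doses. The 9 without a match had -1.26 and -0.46, and may hold CHR forms that were not searched. The 25 with both CCAAT and a CHR had -1.11 and -0.43. In the vehicle libraries, per kilobase of exon, TPX2 (88.9 CPM per kb), TOP2A (87.7) and AURKA (77.8) stood highest, and KIF18A (3.52), CENPE (5.05) and TTK (5.52) lowest, and members at both ends fell with wortmannin.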

How the data were processed

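RNA of 60 HepG2 libraries was sequenced as paired 100-base reads from a directional kit on an MGI instrument, per the labels' protocols. The authors deposited expected counts per gene, made with Trim Galore 0.6.5, STAR 2.7.3a and RSEM 1.3.3 on hg38, per the submitters' processing notes; the annotation release and the strand setting of the counting are not given in the sources used here. Of 270 columns, 210 that belong to no sample of this set were not used. Expected counts were rounded to whole numbers; 76.1% of those above 0 were whole as deposited. edgeR 4.0.16 (R 4.3.3) was fitted to all 60 libraries with 1 mean per group, TMM factors (0.926 to 1.03), filterByExpr (minimum count 10, total 15; 16093 genes) and quasi-likelihood tests, Benjamini-Hochberg adjusted to 0.05 within each of 47 comparisons. The test was checked on simulated data. CPM are per library total without TMM factors.

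Totals of 20.9 M to 33.4 M counts put 3 counts at about 0.1 CPM, far under every member. Alternatives were DESeq2 1.42.0 (Wald test and size factors), other filters, fits to the compared groups alone, a replicate block, a regression on log dose and leaving out each library. Copies were sought with blastn 2.17.0 (95% identity over 300 bases). The members and lists were chosen with earlier results of these data known. Named in each comparison were the 4 members of largest change, the smallest, those against the majority, and from a fixed set those a result turned on; of each outside list, the 2 genes of largest change.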

Additional observations from a re-analysis of the deposited data

Results flagged for a closer look

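The change between 500 and 20 µg/mL differed between the extracts in 42 of the 45 members, by a joint test over the 6 extracts in edgeR, against 35.1% of all genes. For Poria it lay below the mean of the other 5 extracts in 43 members, against 17.8% of all genes. Over the 5 extracts without Poria, a test added after the data were seen, 2 members passed, CDC20 and KIF4A, a smaller share than the 10.8% of all genes. The first 2 of these counts were picked out because effects of the same contrast differed between extracts by a test of the difference itself. The count without Poria is given beside them, and shows few such differences among the members.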

How the results depend on the processing

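Direction was checked for the log2 changes of most members in part of the comparisons. None that passed the threshold in the main fit or in an alternative changed sign there. Counts of members were compared by size alone. The 250 recomputed counts of members (leaving out a library aside) include recounts over members with a count of at least 10 in at least 3 libraries. Every member met that rule, so these recounts equal the main counts by construction and test nothing. With these recounts included, 227 of the 250 stayed within 1.5 times. The other 23 were small counts apart from Poria at 100 against 20 µg/mL (22 members lower, 14 when only the groups compared were fitted), angelica against peony at 500 µg/mL (12 higher, 21 with only those groups) and the joint test (42, and 2 without Poria). Against vehicle at 500 µg/mL, ginseng had 1 lower with no filter, 1 with a mean of at least 1 CPM and 2 with only the groups compared, in place of 0. Angelica had 4 lower with the 1 CPM filter and 6 with only the groups compared, in place of 2, and 3 higher with no filter, in place of 6. Atractylodes had 2 higher with DESeq2, and peony 2 higher with only the groups compared, in place of 1 each. Between 500 and 20 µg/mL, licorice had 5 lower with no filter, 5 with the 1 CPM filter and 4 with only the groups compared, in place of 2, and 0, 0 and 1 higher with no filter, only the groups compared and the regression on log dose, in place of 3. Peony had 5 lower with the 1 CPM filter, 0 with only the groups compared, 1 with the regression and 6 with DESeq2, in place of 3. The causes were not tested.

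Leaving out 1 library gave 45 members lower for wortmannin each time, 42 for Poria at 500 µg/mL against vehicle (with 0 to 1 higher), 41 to 43 for Poria at 500 against 20 µg/mL, 14 to 19 for 100 against 20 and 36 to 40 for 500 against 100 µg/mL. It gave 43 to 44 lower for Poria against Atractylodes, 43 higher for Poria against wortmannin and 41 to 43 lower for Poria against the mean of the other extracts. Against vehicle at 500 µg/mL it gave 0 to 1 higher for Atractylodes, 1 to 4 lower and 10 to 16 higher for licorice, 0 to 1 lower and 1 to 2 higher for ginseng, 0 to 2 lower and 2 to 10 higher for angelica, and 7 to 12 lower for peony. It gave 15 to 22 higher for licorice at 100 µg/mL, 1 to 4 lower and 1 to 3 higher between 500 and 20 µg/mL of licorice, 1 to 3 lower for peony, and 8 to 14 higher for angelica against peony.

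Correlations between the deviations of same-numbered libraries ran from -0.16 to 0.21, and in none of 13 comparisons were all 3 above 0.1. Each library correlated best with its own number in 2 comparisons, Atractylodes and peony at 500 against 20 µg/mL. The main fit used no replicate block, but 3 correlations per comparison cannot exclude a pairing by number. With the replicate block, Atractylodes and peony at 500 µg/mL each had 2 members higher than vehicle in place of 1.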

Other observations

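The order of the members differed between the treatments that lowered them. Wortmannin against vehicle and Poria at 500 against 20 µg/mL share no library, and over the 45 members their log2 changes had a Pearson correlation of 0.19 and a Spearman correlation of 0.05. These are descriptions across genes that share libraries and are not independent. The Poria change was a median 0.38 of the wortmannin change.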
